A study of Rattus norvegicus with 54 samples.

Results

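The genes described here supply mitochondria with proteins and metabolites: the large and small subunits of the mitochondrial ribosome (Mrpl and Mrps), the protein translocases of the inner and outer membranes (Timm and Tomm) and the mitochondrial carrier family (Slc25a). They were taken as every probe set, the unit of the array that reads 1 transcript, whose single annotated symbol begins with one of these names, with Slc25a20 left out. This gave 141 probe sets for 123 genes, of 15866 probe sets and 10411 named genes on the array. Mrpl had 55 probe sets, Mrps 27, Timm 16, Tomm 11 and Slc25a 32, and 14 of the genes had more than 1. By this rule Timmdc1, an assembly factor of respiratory complex I, counts among the Timm genes.

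Levels came from 54 expression arrays of male Zucker rats, 18 for each of 3 tissues: fat from the epididymal depot, liver, and the gastrocnemius, a leg muscle. In every tissue 3 arrays stood for each of 6 groups, which were lean fa/+ rats on normal chow, obese fa/fa rats on normal chow, and obese fa/fa rats given pioglitazone, rosiglitazone, troglitazone or AG035029. The fa allele inactivates the leptin receptor, so all obese groups lack leptin signalling. The first 3 ligands are thiazolidinediones, insulin-sensitizing drugs that activate the nuclear receptor PPARgamma, which is most abundant in fat cells; the last is known here by its code name. Each array held RNA pooled from 2 rats, so that p-values measure the spread among 3 pools a group. The labels give neither doses nor treatment times, so ligands are not compared at known matched doses.

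Mitochondria translate a handful of respiratory chain subunits on their own ribosomes, whose proteins are all encoded in the nucleus, made in the cytosol and imported. Precursors pass the outer membrane through the Tomm complex and are then sorted by Timm complexes, with small Timm chaperones guiding carrier proteins across the space between the membranes. Carriers of the Slc25a family exchange ADP for ATP and move phosphate, citrate, dicarboxylates and amino acids. In white fat, citrate and dicarboxylate transport feeds fatty acid synthesis.

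Arrays were scaled to 1 common mean, and their median signals ran from 191 to 248. The labelled tissues matched their markers: summed adipocyte markers lay at 31506 or above in all adipose arrays, at 983 or below in liver and at 3334 to 5971 in untreated muscle, and summed hepatocyte and muscle fibre markers lay at 253520 and 293556 or above in liver and muscle. In muscle of ligand-treated rats adipocyte marker sums ran from 8528 to 32547, so that 1 array reached the level of the lowest adipose array. In liver 4 arrays (untreated obese 2, rosiglitazone 1 and 3, AG035029 2) and in muscle 3 (untreated obese 2, troglitazone 1 and 3) were more like other groups than their own, against 0 in adipose tissue. For these arrays the mean correlations with their own and with other groups lay close together. They were furthest apart for liver rosiglitazone 1 (0.9182 and 0.9299) and closest for muscle untreated obese 2 (0.931 and 0.9321). Results that change without these arrays are given in addition. Background shares, those of all probe sets tested, come from fits with all arrays and not from runs that leave arrays out. They cover calls after adjustment and values above 0. No such share is given for counts at an unadjusted p under 0.05, so those counts show no excess over all probe sets. Probe sets above the 40th percentile of the mean signal in a tissue were tested, 9519 in each. Members that passed this filter numbered 121 of 141 for adipose tissue, 128 for liver and 123 for muscle, and counts below do not cover the rest. Differences are on the scale of log2(signal + 20), which understates changes of low signals; values after ± are limma standard errors unless an SD is named, and "called" means a Benjamini-Hochberg adjusted p from limma under 0.05.

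Promoters are described first. Whether the sequences found there take part in the changes of the members was not tested. RefSeq (GRCr8) promoters matched 105 of the 123 genes, and the 250 bases before the start were searched on both strands for sequences bound by factors known for nuclear genes of mitochondrial proteins. The ETS core CCGGAAG, bound by GABP, was in 23 of the 105 member promoters (21.9%) and in 7.74% of all 27457 promoters. The NRF1 core CGCATGCG was in 8 (7.62%, against 1.63% of all), and the YY1 core AAGATGGCG in 3 (2.86%, against 0.736%). The ERR element TCAAGGTCA was in 1, that of Timm8b (0.952%, against 0.368%). It contains the hexamer AGGTCA. The exact repeat of that hexamer with 1 base between, a form bound by PPAR, matched no member in this window. Only 15 of all 27457 promoters (0.0546%) held it, so this search cannot show whether members have PPAR sites. Median GC content was 55.2% in members and 52% in all promoters. Among members raised by the ligands in adipose tissue 4 of 34 promoters held the ETS core (11.8%), against 17 of 58 (29.3%) of the other tested members, and the NRF1 core was in 3 of 34 (8.82%) against 5 of 58 (8.62%). The sequences below are the 165 bases before the start of 4 members raised in adipose tissue. Of them, 3 have an ERR, NRF1 or ETS match and Slc25a5 has none. All lie on the + strand, are written 5′ to 3′, and carry matched letters in capitals.
Timm8b, chr8:59850572-59850736, 1 ERR element and 2 ETS cores: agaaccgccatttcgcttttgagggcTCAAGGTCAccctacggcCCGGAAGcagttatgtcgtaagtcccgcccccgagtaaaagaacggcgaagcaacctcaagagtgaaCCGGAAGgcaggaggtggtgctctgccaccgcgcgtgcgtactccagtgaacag
Mrpl22, chr10:42845745-42845909, 1 NRF1 core: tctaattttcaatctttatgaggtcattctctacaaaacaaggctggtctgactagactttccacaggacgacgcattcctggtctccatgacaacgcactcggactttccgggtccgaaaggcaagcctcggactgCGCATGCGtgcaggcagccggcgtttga
Slc25a4, chr16:52805356-52805520, 1 ETS core: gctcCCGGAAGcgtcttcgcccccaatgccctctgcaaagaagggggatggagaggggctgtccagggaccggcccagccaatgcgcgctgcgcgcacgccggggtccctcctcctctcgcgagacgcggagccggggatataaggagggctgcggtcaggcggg
Slc25a5, chrX:120897451-120897615, no match: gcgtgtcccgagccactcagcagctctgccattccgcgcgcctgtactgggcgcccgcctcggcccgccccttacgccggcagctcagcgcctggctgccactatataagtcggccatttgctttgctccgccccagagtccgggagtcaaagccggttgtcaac

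The first question is how members are distributed over the 3 tissues before obesity or a ligand is involved. In lean rats the medians of the ribosome families were lowest in adipose tissue and highest in muscle, with many single probe sets not called, while single carriers differed far more. In a joint limma fit of all 54 arrays, 95 of 132 members tested were called between lean adipose tissue and muscle (background 56.5% of 11520 probe sets), 14 higher in adipose tissue (background 32.2%) and 81 lower (background 24.3%). Of the Mrpl probe sets 44 of 54 were lower in adipose tissue than in muscle and 2 higher, with a median of -1.01 (log2). Of the Mrps probe sets 17 of 26 were lower and 0 higher (median -0.72). Between adipose tissue and liver 66 of 132 were called (background 54.4%), 16 higher (32.1%) and 50 lower (22.4%). Between liver and muscle 75 were called (background 54.7%), 21 higher (25.4%) and 54 lower (29.2%). The shares called in either direction were thus near the background in these 2 pairs. Against liver, adipose tissue was lower for 24 of 54 Mrpl probe sets and higher for 2 (median -0.38), and lower for 9 of 26 Mrps probe sets and higher for 1 (median -0.26). Liver was lower than muscle for 29 Mrpl and 11 Mrps probe sets and higher for 2 of each (medians -0.47 and -0.46). Adipose tissue holds many cell types, and in whole tissue fewer cells of a type cannot be told apart from less RNA per cell.

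The carriers showed 3 patterns. The ADP/ATP carriers were split by tissue: Slc25a4 had a mean signal of 44177 ± 2021 (SD, n = 3) in lean muscle, 4180 ± 114 in adipose tissue and 377 ± 49.6 in liver. Slc25a5, the other ADP/ATP carrier measured, ran the opposite way at 1071 ± 60.9, 6900 ± 1116 and 10115 ± 996. All neighbours in both orders were called, with adjusted p from 0.0152 (Slc25a5, adipose tissue against liver) down to 1.69e-15 (Slc25a5, adipose tissue against muscle). Whether either probe set also reads the transcript of the other carrier was not tested. Carriers that serve lipid synthesis were highest in fat. The citrate carrier Slc25a1 read 3929 ± 746 in fat, 1579 ± 169 in liver and 269 ± 54.8 in muscle, each step called. The dicarboxylate carrier Slc25a10 read 1837 ± 108, 1132 ± 64.3 and 131 ± 60.8, and adipose tissue and liver were not told apart (0.69 ± 0.34, adjusted p = 0.0784). Slc25a35, whose substrate is not settled, read 415 ± 95.4 in adipose tissue and lay near the bottom of the signal range in liver (19.6 ± 1.67) and muscle (27.9 ± 8.31). The aspartate/glutamate carriers divided between liver and muscle. Slc25a13 read 3070 ± 545 in liver against 43.5 ± 2.05 in adipose tissue and 78.7 ± 55.4 in muscle, and Slc25a12 read 3252 ± 268 in muscle against 246 ± 14.9 in adipose tissue and 230 ± 42.5 in liver. The ornithine carrier Slc25a15, part of the urea cycle, was also highest in liver, at 2656 ± 209. Signals of different probe sets do not rank genes against each other, so only the same probe set is compared between tissues.

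**Figure D1:**
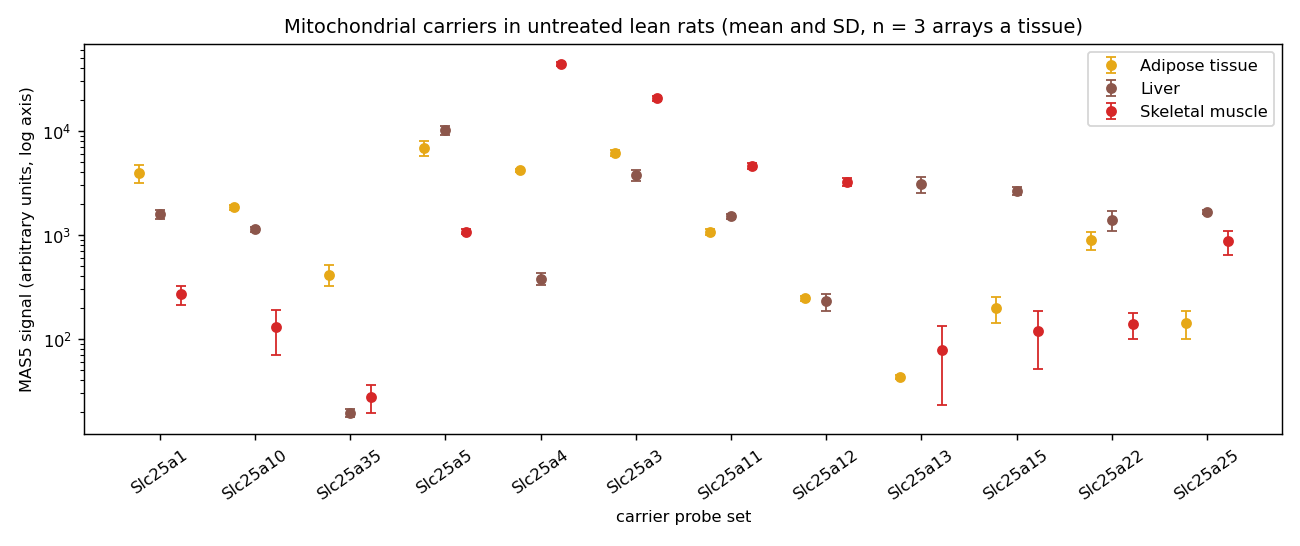
MAS5 signal (arbitrary units, log axis) of 12 mitochondrial carriers in untreated lean rats; points are means and bars SDs of 3 arrays in adipose tissue, liver and skeletal muscle. Slc25a4 and Slc25a5 run in opposite order over the tissues, Slc25a1, Slc25a10 and Slc25a35 have their highest means in adipose tissue, and Slc25a13 and Slc25a15 have theirs in liver.

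The comparison of untreated obese fa/fa with lean fa/+ rats joins obesity with the loss of leptin signalling, which cannot be told apart here. Its differences are called obesity effects below. In adipose tissue 5 of 121 members were called (4.13%, against a background of 6.02% of 9519 probe sets), 3 higher and 2 lower, and the ribosome families had none. With limma 6 of 53 Mrpl and 2 of 25 Mrps probe sets had an unadjusted p under 0.05. The median over members was 0.07, against -0.02 over all probe sets tested, and 78 of 121 values lay above 0 (background 47.2%). The median 95% interval of a member reached 0.32 to either side.

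Slc25a35 fell most. Its signals were 478, 461 and 305 on the lean arrays and 123, 155 and 209 on the untreated obese arrays. The groups did not overlap, and the difference was -1.25 ± 0.19 (adjusted p = 0.000483). Slc25a30, a carrier first described in kidney mitochondria, read 2116, 1656 and 1274 in lean and 866, 849 and 892 in obese rats. All obese arrays lay below all lean ones, with a difference of -0.91 ± 0.19 (adjusted p = 0.00683). Both calls held in every alternative run.

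The 3 rises were smaller. Timm8b, a small chaperone of the intermembrane space, read 1034, 1191 and 1270 in lean and 1841, 1810 and 1796 in obese rats. The groups were well apart, at 0.64 ± 0.15 (adjusted p = 0.0124), and the call was lost only without lean array 1. The citrate carrier Slc25a1 read 3327, 4764 and 3695 in lean and 5703, 6246 and 6286 in obese rats. It too did not overlap (0.64 ± 0.17, adjusted p = 0.0349), but 7 of 15 alternatives, most of them leaving out 1 array, lost the call. Timm10, another small chaperone, read 804, 788 and 819 in lean and 1023, 994 and 1457 in obese rats, where 1 obese array stood above the other two; its call (0.49 ± 0.14, adjusted p = 0.0492) was lost in 9 of 15 alternatives. Slc25a44, a carrier of branched-chain amino acids, had the largest difference that did not pass, 0.69 (adjusted p = 0.0802). Leaving out 1 array gave 2 to 4 calls in place of 5, with 2 without lean array 1 and 3 without lean array 3 or without obese array 1 or 3.

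The main comparison asks what the ligands did in obese rats, taking the average of the 4 treated groups against untreated ones (the ligand mean below). In adipose tissue the members rose broadly: 42 of 121 were called higher (34.7%, against a background of 9.01%) and 1 lower (background 11.6%). By gene, taking the probe set with the smallest p, 39 of 110 genes rose and 1 fell. The median over members was 0.22, against -0.05 over all probe sets tested, and 100 of 121 values lay above 0 (background 42.7%). The rise was modest for most members, since the largest was 1.15 and the median 95% interval reached 0.25 to either side. The count depended on the untreated arrays. It was 18 without untreated obese array 1, 26 without array 2 and 27 without array 3, and 18 to 44 over all 15 arrays left out in turn. The background of 9.01% is that of the fit with all arrays. This comparison and that of obese with lean rats share the untreated obese arrays, so their values for a gene are not independent.

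**Figure D2:**
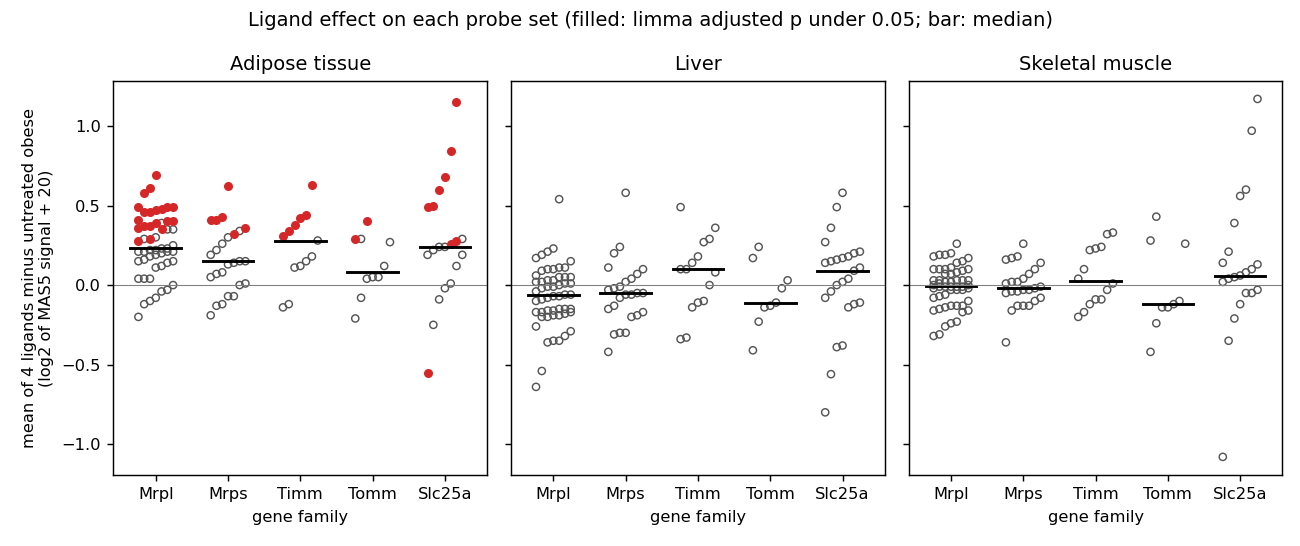
Ligand effect, as the average of the 4 treated groups less the untreated obese group (log2 of MAS5 signal + 20), for every tested probe set, by gene family, in adipose tissue, liver and skeletal muscle; filled points have a limma adjusted p under 0.05 and bars are family medians. In adipose tissue 42 points are filled above 0 and 1 below, and in liver and muscle none is filled.

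Of Mrpl, the large subunit of the ribosome, 20 of 53 tested probe sets rose (37.7%, median 0.23) and none fell. Mrpl41 led them, with signals of 616, 770 and 750 on the untreated obese arrays and a lowest, median and highest of 891, 1149 and 1455 on the 12 ligand arrays. Every ligand array lay above every untreated one (0.69 ± 0.13, adjusted p = 0.000675). Mrpl2, a protein close to the catalytic centre, read 377, 485 and 377 without and 451, 652 and 815 with ligands, with 11 of 12 ligand arrays above all untreated ones (0.61 ± 0.14, adjusted p = 0.00404). Mrpl12, which also binds the mitochondrial RNA polymerase, read 1097, 973 and 953 without and 1052, 1541 and 2180 with ligands, again with 11 of 12 above (0.58 ± 0.14, adjusted p = 0.00636). Mrpl22, at 0.49 ± 0.12, and Mrpl42, at 0.46 ± 0.08, also rose (adjusted p = 0.00701 and 0.000529). Probe sets of 1 gene did not always move alike: of 4 for Mrpl51, 1 rose by 0.49 and the others read 0.30, 0.25 and 0.04 without passing, while both tested probe sets of Mrpl37 rose, by 0.37 and 0.28. At the low end Mrpl23 read -0.20 (adjusted p = 0.212).

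Of Mrps, the small subunit, 6 of 25 tested probe sets rose (24%, median 0.15) and none fell. Mrps9 read 133, 160 and 200 on the untreated obese arrays and 163, 258 and 370 (lowest, median and highest) on the ligand arrays. It was low in signal, and 11 of 12 ligand arrays lay above all untreated ones (0.62 ± 0.15, adjusted p = 0.00667). Mrps12, at 0.43 ± 0.11, and Mrps18b, at 0.41 ± 0.11, followed (adjusted p = 0.00912 and 0.0146). The call of Mrps23 (0.41 ± 0.14, adjusted p = 0.049) was lost in 14 of 24 alternatives. Mrps7, a component of the small subunit head, did not pass at 0.15 ± 0.10.

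Among inner membrane translocase genes, 6 of 13 tested Timm probe sets rose (median 0.28). Timm8b read 1841, 1810 and 1796 without a ligand and 2084, 2863 and 3560 (lowest, median and highest) with one. All 12 ligand arrays lay above the untreated ones, at 0.63 ± 0.11 (adjusted p = 0.000704), on top of the higher level of obese rats. Other small chaperones rose as well, Timm10b by 0.44 ± 0.09 (adjusted p = 0.0024) and Timm9 by 0.38 ± 0.11 (adjusted p = 0.0147), whereas Timm13 and Timm10 did not pass at 0.28 and 0.18. Timm21, Timm50 and Timm17a, subunits of the presequence translocase, rose by 0.42, 0.34 and 0.31 (adjusted p = 0.0125, 0.0244 and 0.0106). Timm22, the channel of the separate carrier translocase, read -0.12 and -0.14 with its 2 probe sets and did not pass.

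The outer membrane translocase moved least. Only 2 of 10 tested Tomm probe sets were called, with a median of 0.08. Tomm5, a small subunit of the complex, read 990, 1207 and 1336 without and 1146, 1500 and 1986 with ligands (0.40 ± 0.13, adjusted p = 0.032). The receptor Tomm22 read 923, 1066 and 1058 without and 989, 1218 and 1498 with ligands. In both genes 11 of 12 ligand arrays lay above all untreated ones, yet Tomm22 passed narrowly (0.29 ± 0.10, adjusted p = 0.0498) and lost its call in 14 of 24 alternatives. The other receptors, Tomm20 (0.12 and 0.04 with 2 probe sets) and Tomm70 (0.05), and the channel Tomm40 (-0.21 ± 0.22) did not pass. Differences between the families were not tested.

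The carriers held the largest changes, with 8 of 20 tested probe sets higher and 1 lower (median 0.24). The dicarboxylate carrier Slc25a10 read 2567, 2312 and 2523 on the untreated obese arrays and 3343, 4551 and 5209 (lowest, median and highest) on the ligand arrays. The groups were far apart (0.84 ± 0.10, adjusted p = 1.22e-05). Slc25a35 read 123, 155 and 209 without and 279, 379 and 543 with ligands. All ligand arrays lay above the untreated ones (1.15 ± 0.15, adjusted p = 2.52e-05), and the ligand mean differed from lean rats by -0.10, with an interval from -0.41 to 0.21.

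The ADP/ATP carriers rose too. Slc25a5 read 6453, 7057 and 7260 without and 9112, 11081 and 12567 with ligands, with no overlap (0.68 ± 0.10, adjusted p = 8.56e-05). Slc25a4, the main form of muscle, read 4804, 4164 and 4602 without and 4955, 5449 and 6028 with ligands. Its ligand arrays were all higher, by a smaller margin (0.26 ± 0.07, adjusted p = 0.0139). The phosphate carrier Slc25a3 did not pass at 0.24 ± 0.09 (adjusted p = 0.0785).

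Carriers of organic acids and cofactors followed. Slc25a1 read 5703, 6246 and 6286 without and 6632, 8100 and 13410 with ligands (0.49 ± 0.14, adjusted p = 0.0175), and the oxoglutarate carrier Slc25a11 rose by 0.28 ± 0.09 (adjusted p = 0.0362). All 12 ligand arrays lay above the untreated ones for both. Slc25a39, needed for mitochondrial glutathione import, rose by 0.60 ± 0.14 and Slc25a17, a peroxisomal member of the family, by 0.50 ± 0.10 (adjusted p = 0.00429 and 0.00148). The aspartate/glutamate carrier Slc25a12 was the only called member that fell. It read 281, 199 and 266 without and 111, 160 and 225 with ligands, with 11 of 12 ligand arrays below all untreated ones (-0.55 ± 0.14, adjusted p = 0.00898). Slc25a30, low in obese rats, read 655, 943 and 1424 with ligands and did not pass (0.12 ± 0.15); against lean rats the ligand mean was lower by -0.79 ± 0.15 (adjusted p = 0.000519).

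**Figure D3:**
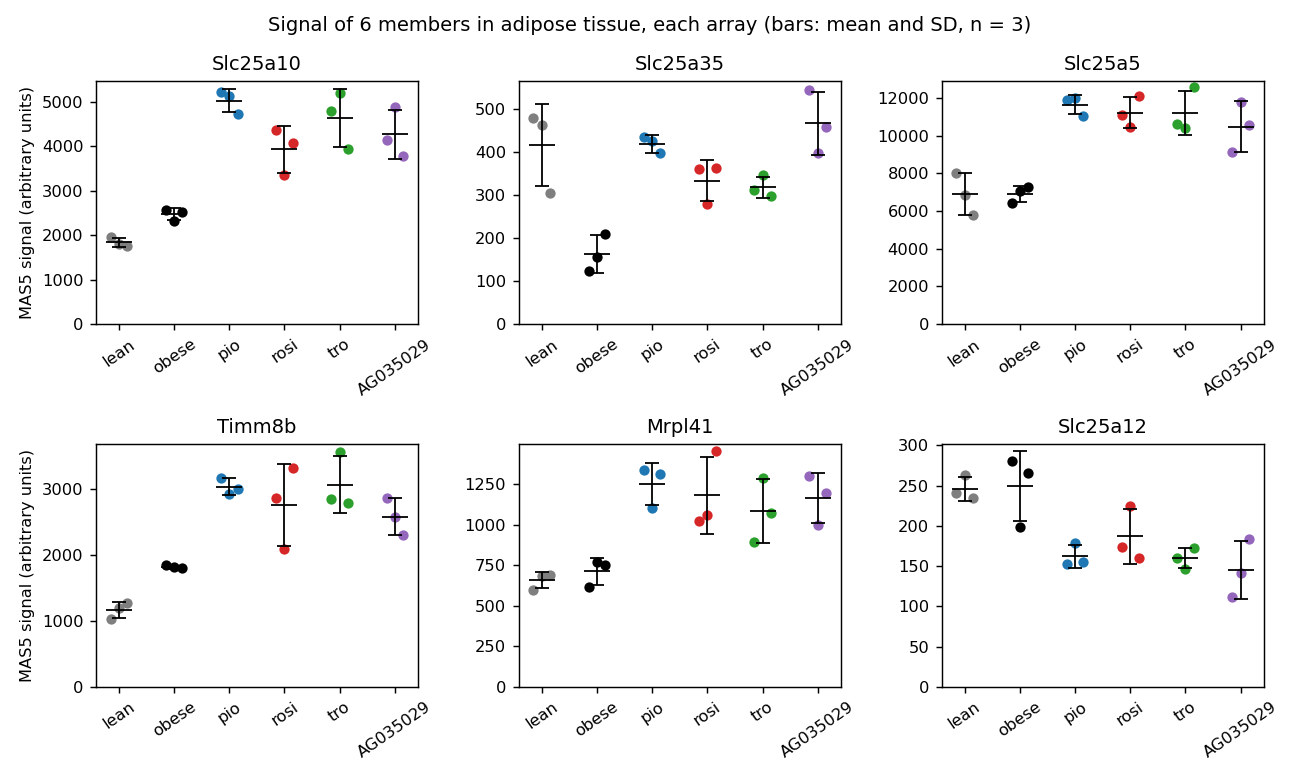
MAS5 signal (arbitrary units) in adipose tissue of 6 members in lean, untreated obese and 4 ligand groups; points are arrays, and bars show the mean and SD of 3 arrays. Slc25a35 was lower in obese than in lean rats and higher again with every ligand, Timm8b was higher in obese rats and higher still with ligands, and Slc25a12 was lower with ligands.

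Against lean rats, which share no array with the untreated obese group, 56 members were higher with the ligands and 3 lower (background 35.5% in either direction and 14.4% higher), with a median of 0.29 against -0.07 over all probe sets tested. The members that were lower were Slc25a12, Slc25a30 and 1 probe set of Mrpl52. Slc25a10 stood 1.26 ± 0.10 above lean rats and Timm8b 1.27 ± 0.11 (adjusted p = 5.48e-08 and 2.84e-07).

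The 4 ligands were then taken apart, each against the same 3 untreated arrays. Pioglitazone raised 31 members (background 6.98%), troglitazone 33 (7.81%), AG035029 15 (6.71%) and rosiglitazone 5 (2.87%), and all but rosiglitazone lowered Slc25a12 (background for falls 7.56% with pioglitazone, 9.09% with troglitazone, 8.43% with AG035029 and 2.69% with rosiglitazone). Medians over members were 0.26, 0.30, 0.18 and 0.16 in the same order. The 5 members called with every ligand (background 2.64%) were Mrpl41, Slc25a10, Slc25a35, Slc25a5 and Timm8b. Slc25a10 rose by 1.02 under pioglitazone, by 0.90 under troglitazone, by 0.78 under AG035029 and by 0.66 under rosiglitazone, each with a standard error of 0.13. Slc25a35 rose by 1.29, 0.92, 1.43 and 0.97 in the same order (standard error 0.19). Values lay above 0 with all 4 ligands for 82 of 121 members (background 26.0%).

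A smaller count for a ligand is no evidence that it acted less. An F-test among the 4 ligands in limma called 0 of 121 members (background 0.0315%), with 6 at an unadjusted p under 0.05, and the 6 pairwise comparisons between ligands called none (background 0.00, 0.0105 or 0.0420%), with 5 to 10 members at an unadjusted p under 0.05 in each. The smallest F-test p was that of Slc25a30 (adjusted p = 0.42). Pioglitazone and rosiglitazone differed for Slc25a10 by 0.36, with an interval from 0.10 to 0.62 and an adjusted p of 0.741 (limma). AG035029 and pioglitazone differed for Slc25a35 by 0.14 in size, with an interval of the pioglitazone value from -0.53 to 0.25. The unadjusted interval of a median member reached 0.32 to either side. Differences between ligands of that size or larger can still fail the adjusted test, as that of Slc25a10 did. Rosiglitazone array 2 stood low: its median over members, set against lean rats, was 0.10, while arrays 1 and 3 read 0.29 and 0.36. Without it rosiglitazone raised 14 members in place of 5, and without rosiglitazone array 3 the count was 3. Counts for the others also moved with single arrays, to 14 for pioglitazone without its array 1, to 17 for troglitazone without its array 2 and to 8 for AG035029 without its array 2 or without untreated obese array 1.

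**Figure D4:**
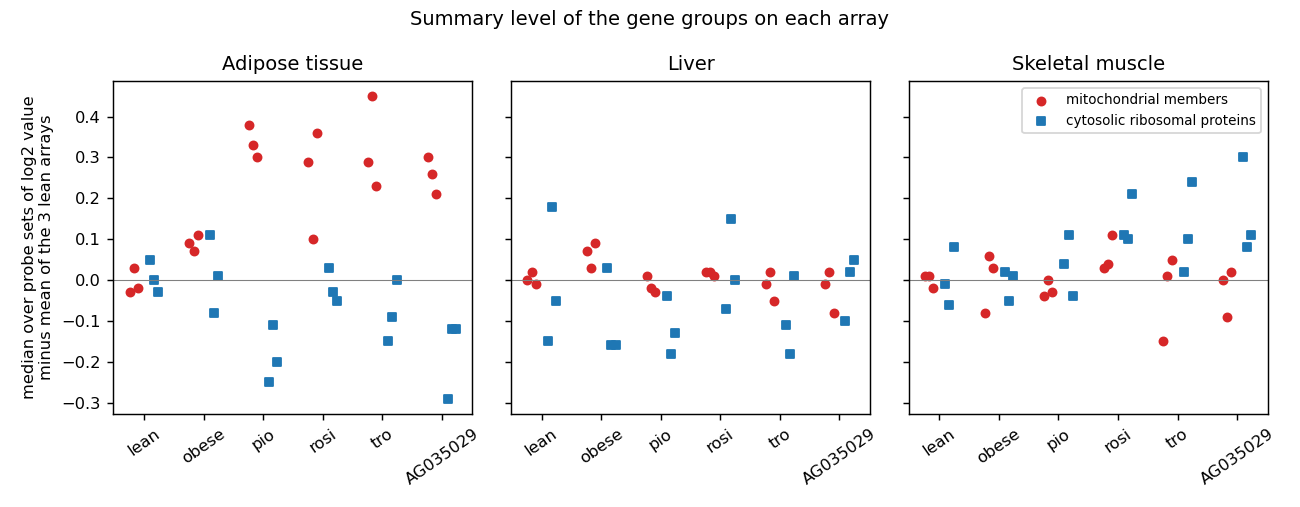
Median over probe sets of each array's log2 value minus the mean of the 3 lean arrays, for the mitochondrial members and for cytosolic ribosomal proteins, by group and tissue. In adipose tissue the members lie at 0.07 to 0.11 in untreated obese rats and at 0.10 to 0.45 with ligands, while cytosolic ribosomal proteins lie at -0.29 to 0.03 with ligands.

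Other genes of the same machinery were measured beside the members. The background for the ligand mean in adipose tissue was 9.01% of probe sets higher and 11.6% lower. Of genes for import, folding and membrane shape outside Timm and Tomm, 17 of 29 tested probe sets rose with the ligands in adipose tissue and none fell (median 0.43). Among them Hspd1 and Hspe1, the chaperonin of the matrix and its partner, rose by 0.85 ± 0.11 and 0.63 ± 0.09. The import motor protein Hspa9 rose by 0.82 and 0.60 with 2 of its 3 probe sets, and its exchange factor Grpel1 by 0.60. The translation elongation factors Tufm and Gfm1 rose by 0.62 ± 0.16 and 0.61 ± 0.11. Nuclear genes of the respiratory chain had 68 of 85 probe sets higher and none lower, with a median of 0.50. The core subunits that these ribosomes make were not on this list. Cytosolic ribosomal proteins did not rise with them: 0 of 41 were higher and 4 lower (limma, with 6 at an unadjusted p under 0.05). The share lower was near the background, and the median was -0.12. Of 11 tested probe sets for regulators of mitochondrial biogenesis none was called, and none had an unadjusted p under 0.05 (limma): Tfam read 0.21 ± 0.13, Esrra 0.23 ± 0.18 and Pparg itself 0.07 ± 0.12. Of the outer membrane channels, 1 of 4 probe sets, for Vdac1, rose by 0.46.

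Markers of several cell types moved in the same adipose arrays, where 9.01% of all probe sets rose and 11.6% fell with the ligands. Macrophage markers fell with the ligands in 9 of 13 probe sets, and their summed signal ran from 19267 to 22380 in lean, 37313 to 39929 in untreated obese and 17373 to 34228 in ligand arrays. Lymphocyte and dendritic cell markers fell in 5 of 6 tested probe sets (sums of 12539 to 12839, 15500 to 17858 and 6939 to 13439). Adipocyte markers rose in 2 of 5 and fell in 1, and their sums overlapped between the groups (34037 to 42128, 31506 to 38871 and 33863 to 46827). Of brown adipocyte markers only Cidea was above the filter, and it rose by 0.87. Ucp1, the defining gene of brown fat, read 21.6 to 59.2 in untreated obese and 50.3 to 454 in ligand arrays. Hepatocyte markers were called in 2 of 4 tested probe sets, both for Alb, which rose by 4.43 and 4.45, and their sums rose from 1225 to 1645 without to 4977 to 15657 with ligands. Of muscle fibre markers 3 of 8 probe sets rose, all for Myh1, while Ckm read 0.01 and Myl1 0.05. The part of these cell types in the rise of the members was not tested.

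In liver 0 of 128 members were called between obese and lean rats (background 0.672%), with 9 at an unadjusted p under 0.05 (limma), and 0 between the ligand mean and untreated obese rats (background 0.494%), with 10. Medians were 0.03 and -0.02, each against -0.01 over all probe sets tested. Single ligands called 0 members each (background 0.0210% with pioglitazone, 0.0630% with rosiglitazone, 0.662% with troglitazone, 0.200% with AG035029), with 4 to 10 at an unadjusted p under 0.05, and so did the F-test among ligands (background 0.0105%), with 8. The median interval reached 0.35 to either side for the ligand mean, wider than in adipose tissue. The largest obesity difference was that of Slc25a30, with 2499, 1371 and 1463 in lean and 562, 880 and 1016 in untreated obese rats. The groups did not overlap, but the call narrowly failed (-1.09 ± 0.26, adjusted p = 0.059). Against lean rats the ligand mean was called lower for Slc25a30 (-1.06 ± 0.20, adjusted p = 0.00453) and higher for Slc25a44 and Mrps35 (1.45 and 0.75; 3 of 128 members, background 3.18%). The largest ligand value was -0.80 for Slc25a23, a calcium-regulated ATP carrier, which rests on 1 untreated obese array at 1480 beside 370 and 247.

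Without the 4 liver arrays that were more like other groups, 1 member was called for the ligand mean, with 1 of the 2 probe sets of Timm8a1, a small chaperone (1.15 ± 0.23, adjusted p = 0.0205). It was also called for troglitazone (1.21 ± 0.26, adjusted p = 0.0355). Rosiglitazone was left there with 1 array, whose spread is assumed to be that of the other groups. With it Timm8a1 read 1.74, Mrpl55 1.17 and Slc25a10 -1.42. The 4 arrays were picked because they differ from their own groups. Leaving them out therefore tends to narrow the spread within groups and to lower the p-values.

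In muscle 0 of 123 members were called between obese and lean rats (background 0.0210%), with 3 at an unadjusted p under 0.05 (limma), and 0 for the ligand mean (background 0.242%), with 7. Medians were -0.01 and -0.00. Single ligands also called none (background 0.231% with pioglitazone, 0.0315% with rosiglitazone, 0.704% with troglitazone, 0.116% with AG035029), with 6 to 10 members at an unadjusted p under 0.05, as did the F-test among ligands (background 0.00%), with 9. The largest obesity value was 1.08 ± 0.51 for Slc25a34, a carrier of unsettled substrate (adjusted p = 0.998). The largest ligand values belonged to carriers that are low in lean muscle and high in lean fat. Slc25a10 read 113, 41.2 and 114 in untreated obese rats and 59.8, 233 and 376 (lowest, median and highest) with ligands. Slc25a1 read 306, 236 and 343 without and 310, 586 and 1360 with ligands, and Slc25a5 read 685, 1193 and 1310 without and 860, 1604 and 3031 with ligands. The groups overlapped for all 3, with 10, 10 and 8 of 12 ligand arrays above all untreated ones. For the ligand mean they came to 1.17 ± 0.38, 0.97 ± 0.31 and 0.56 ± 0.21, and none passed (adjusted p = 0.412, 0.409 and 0.559). Adipocyte markers moved in the same muscle arrays: their summed signal was 3334 to 5971 in untreated obese rats and 8528 to 32547 with ligands, Fabp4 rose by 2.03, and 1 of 3 tested probe sets was called. Their part in these values was not tested. Without the 3 muscle arrays that were more like other groups, troglitazone was left with 1 array. Its spread is likewise assumed to be that of the other groups, and this choice of arrays again favours low p-values. Slc25a5 then read 1.66 and Timm22 -1.79.

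Whether the ligand effect differed between tissues was tested in the joint fit, which took arrays of different tissues as independent. The F-test called 7 of 132 members (5.30%, near the background of 4.93% of 11520 probe sets). Timm8b differed most (adjusted p = 0.000468), at 0.63 in fat against -0.33 in liver and 0.01 in muscle. Its liver signals were 2010, 1619 and 1769 without a ligand and 1128, 1360 and 1824 (lowest, median and highest) with one, with 9 of 12 ligand arrays below all untreated ones. Slc25a1 (adjusted p = 0.00581) read 0.49, -0.56 and 0.97. In liver its untreated signals were 2132, 1915 and 2272, and all 12 ligand arrays lay below them, at 1000 to 1888. Mrpl35, Mrpl41 and Mrpl22 had their highest value in adipose tissue, at 0.41, 0.69 and 0.49, against -0.36, -0.06 and -0.26 in liver. Mrps26 was highest in liver (0.58, against -0.13 in adipose tissue), and Mrpl33 lowest there (-0.54, against 0.18). The obesity effect differed between tissues for 0 members (background 0.868%), with 17 at an unadjusted p under 0.05 (limma). A call in adipose tissue and none in liver or muscle is therefore no evidence of a tissue difference for the other members raised in fat. The 7 were 4 without untreated obese adipose array 2 and 2 without array 3.

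**Figure D5:**
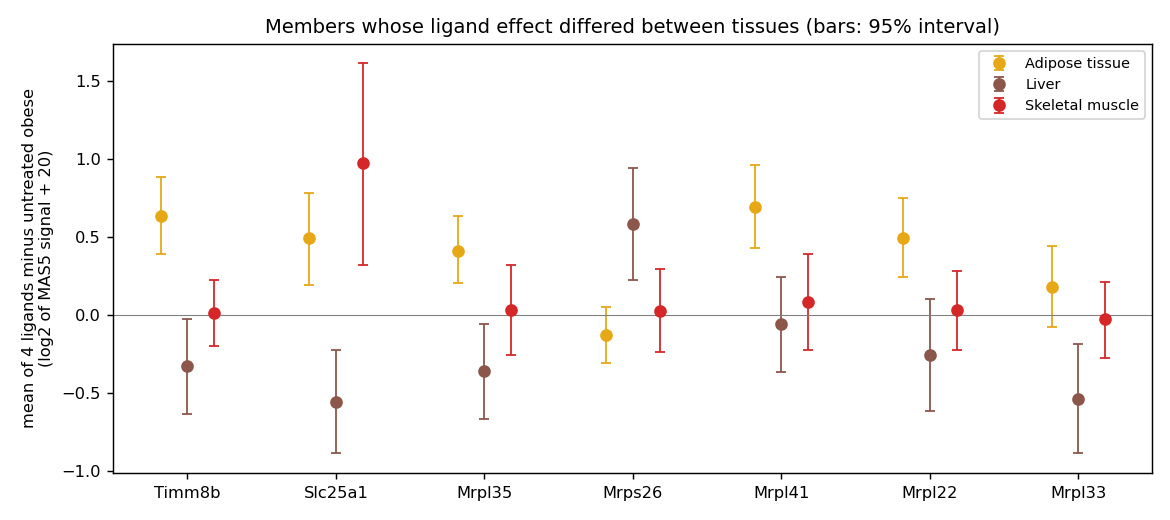
Ligand effect, as the average of the 4 treated groups less the untreated obese group (log2 of MAS5 signal + 20), in adipose tissue, liver and skeletal muscle for the 7 members whose effect differed between tissues; points are limma estimates from the fit of each tissue and bars 95% intervals. Of the 7, Timm8b, Mrpl35, Mrpl41, Mrpl22 and Mrpl33 have their highest value in adipose tissue, Slc25a1 in muscle and Mrps26 in liver. None of the 7 was called by itself in liver or muscle.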

How the data were processed

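RNA of 54 arrays (Affymetrix Rat Expression Set 230A) was measured, and each array held a pool of 2 rats per the labels' protocols. The deposited values are linear intensities, MAS5 signals that the authors computed before deposit, of a version that the submitters' processing notes do not give. The mean after trimming 2% at each end was 500.1 or close to it on every array, so no further scaling was applied. Symbols came from the platform annotation, which can be old; all 141 members matched RefSeq by Entrez identifier and 0 symbols differed. Family probe sets annotated with several genes (3) were left out.

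Signals were used as log2(signal + 20). Those whose mean in a tissue exceeded the 40th percentile (9519 of 15866 probe sets) entered 1 limma fit a tissue, over 18 arrays with 12 residual degrees of freedom (lmFit, contrasts.fit and a trended eBayes; limma 3.58.1, R 4.3.3). Tissue differences came from a further fit over the 54 arrays together, with 11520 probe sets. P-values were adjusted by Benjamini-Hochberg over all probe sets tested, and members were read out of those fits. The precision is limited by the 3 arrays a group. The fits were also tried on simulated data. No outcome is given here, so error rates of these fits are not known from it. The members and gene lists were chosen with earlier results of these data known. Named members were, per family and direction, up to 4 called ones with the largest size, the largest that did not pass, the smallest F-test p-values and the members called with every ligand; further members of a complex are named to describe it, and Mrpl51, Mrpl37, Mrpl52, Mrpl23, Timm8a1, Timm22, Mrpl55, Slc25a44, Mrps35 and those of the lean tissues were named after their values were seen.

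Within each tissue, arrays of different groups that shared a replicate number did not deviate together. The mean correlation of residuals was 0.0184 for adipose tissue, 0.00322 for liver and 0.0117 for muscle, each over 45 pairs. The main fits therefore left the replicate number out. Arrays of different tissues were not compared in this check. Whether adipose, liver and muscle arrays with the same number came from the same rats was not tested. The joint fit took all 54 arrays as independent, and its p-values rest on that. No 2 arrays were identical. The fits were repeated with quantile normalization or median centring, with pseudocounts of 5 and 80, with the filter removed or moved to the 60th percentile, with a replicate block, with weighted arrays, on the compared arrays alone, and with each array left out. The alternative without arrays closer to other groups was chosen after seeing the data. Raw image files were not used here.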

Additional observations from a re-analysis of the deposited data

Results flagged for a closer look

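For 7 members the effect of the ligands differed between the 3 tissues by the F-test of the joint limma fit. This difference between tissues is why they are listed. The same test called 4.93% of all 11520 probe sets, a share near that of the members. Without untreated obese adipose array 3 the 7 calls became 2. The adjusted p-values were 0.000468 for Timm8b, 0.00581 for Slc25a1, 0.0154 for Mrpl35, 0.0251 for Mrps26, 0.0275 for Mrpl41, 0.0425 for Mrpl22 and 0.0432 for Mrpl33. In pairs of tissues, Timm8b rose more in adipose tissue than in liver by 0.97 ± 0.17 and than in muscle by 0.63 ± 0.17 (log2, adjusted p = 0.000205 and 0.0318, limma). For Slc25a1 the liver value lay below the muscle value by -1.52 ± 0.33 (adjusted p = 0.00827). Neither value passed within its own tissue. Summed adipocyte markers also rose in the ligand-treated muscle arrays, and their part in the Slc25a1 value was not tested. For Mrps26 the adipose value lay below the liver value by -0.71 ± 0.18 (adjusted p = 0.0149). Mrpl41 and Mrpl22 no longer passed without the liver and muscle arrays that were more like other groups (adjusted p = 0.0614 and 0.122).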

How the results depend on the processing

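Counts of called members are given as main value and alternative, without the share of all probe sets called in the same run. The cause of each change was not tested. For obese against lean in adipose tissue, 5 became 9 with array weights, 3 with median centring and 3 with no filter, and 2 to 4 with 1 array left out. For the ligand mean in adipose tissue, 43 became 18 to 44 with 1 array left out. For rosiglitazone in adipose tissue, 5 became 14 with array weights, 3 with only the arrays compared and 8 with quantile normalization, and 3 to 14 with 1 array left out. For troglitazone, 34 became 21 with only the arrays compared and 17 to 31 with 1 array left out. For pioglitazone, 32 became 14 to 23 with 1 array left out. For AG035029, 16 became 28 with array weights and 8 to 13 with 1 array left out. In liver the 0 calls of obese against lean became 1 with array weights, 1 with a filter at the 60th percentile, 1 with a pseudocount of 80 and 0 to 1 with 1 array left out. Without the arrays that were more like other groups, liver had 1 call for the ligand mean, 3 for rosiglitazone and 1 for troglitazone, and rosiglitazone had 0 to 1 with 1 array left out. In muscle the 0 calls of troglitazone became 2 without such arrays, 1 with a filter at the 60th percentile, 1 with a pseudocount of 80, 1 with quantile normalization, 1 with the replicate block and 0 to 1 with 1 array left out. The F-test of tissue differences in the ligand effect went from 7 to 15 with array weights, 14 with quantile normalization and 2 to 10 with 1 array left out, and that of the obesity effect from 0 to 2 with array weights, 1 with quantile normalization and 0 to 1 with 1 array left out. Lean tissue counts of 66, 95 and 75 ran over 55 to 63, 89 to 92 and 65 to 72. With the replicate number as a block, the ligand mean in adipose tissue had 42 calls in place of 43 and obese against lean 4 in place of 5. The median of all members for the ligand mean in adipose tissue was 0.22 as deposited, 0.28 with quantile normalization and 0.31 with median centring. No named member changed direction while called. The 20 members below the filter in adipose tissue were not tested.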

Other observations

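Translocase genes also differed between lean tissues. In adipose tissue 8 of 15 tested Timm probe sets were lower than in muscle and 1 higher (median -0.83 on the log2 scale), and 5 of 10 Tomm probe sets were lower and 1 higher (median -0.37), with 24.3% of all probe sets lower and 32.2% higher. Between liver and muscle, 4 of the 15 Timm probe sets were higher in liver and 4 lower. These shares were near those of all probe sets (25.4% higher and 29.2% lower). Timm8b read 4540 ± 438 (SD, n = 3) in lean muscle, 1696 ± 459 in liver and 1165 ± 120 in adipose tissue, and adipose tissue lay below muscle by -1.95 on the log2 scale (adjusted p = 5.37e-15, limma). Timm17a and Timm21, both of the presequence translocase, were also highest in muscle, at 2927 ± 45.3 and 1267 ± 199. Timm8a1, the partner of Timm13, was highest in liver with 1 of its 2 probe sets, at 396 ± 23.1 against 67.7 ± 24.9 in adipose tissue. Tomm6, a small outer membrane subunit, was highest in adipose tissue, with 1480 ± 157 in adipose tissue against 989 ± 61.8 in liver and 1109 ± 106 in muscle (adjusted p = 0.00151 and 0.0199). Timm50, Timmdc1 and Tomm7 passed in no pair of tissues. Among ribosomal proteins the largest gap between adipose tissue and muscle was that of Mrpl12 (-2.01 ± 0.19, adjusted p = 4.66e-12), and Mrpl57 was higher in adipose tissue with 1 of its 2 probe sets (1.38 ± 0.24).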
